A study of Mus musculus with 6 samples.

Results

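Macrophages of the heart are commonly recognised by a set of 10 marker genes, and these, Lyz2, Csf1r, Cd68, C1qa, C1qb, C1qc, Cd74, Tyrobp, Fcer1g and Mrc1, were followed through an RNA immunoprecipitation (RIP) experiment on mouse heart. They were taken by symbol as known markers, with no measured value in the rule but with earlier results of these data known, and all 10 were found among the 24421 gene symbols of the deposited table. The material was whole heart lysate of C57BL6/J mice aged 4 weeks, with no other genotype or treatment given in the labels. Cnot3 RIP, made with an antibody against Cnot3, had 2 libraries, control IgG RIP, made with an unspecific antibody, had 2, and Input, RNA of the lysate before precipitation, had 2. Nothing in the labels says whether the 2 libraries of a group came from separate hearts, so every p-value reflects library-to-library spread that may be purely technical. Setting Cnot3 RIP against control IgG RIP asks which transcripts are recovered by the Cnot3 antibody beyond what any antibody recovers, and setting either against Input shows how precipitated RNA differs from the lysate.

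Resident macrophages sit between the cardiomyocytes of the heart, where they clear debris and dying cells and depend on signalling through the CSF1 receptor. Cnot3 belongs to the CCR4-NOT deadenylase, which trims the poly(A) tails of mRNAs in the cytoplasm and is brought to many of its targets by proteins that bind elements in the 3′ UTR, such as AU-rich elements and Pumilio elements. None of the 10 markers is exclusive to macrophages. Lyz2 is also made by neutrophils, Cd74 by B cells and dendritic cells, Tyrobp by NK cells, Fcer1g by mast cells, and Mrc1 by some endothelial cells.

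In the libraries all 10 markers were detected, with between 21 reads (Tyrobp, Input replicate 1) and 977 reads (Mrc1, Cnot3 RIP replicate 1) per gene and library, and all 10 passed the filter on low values. The recovered library totals were 17283203 to 25567544 reads in the RIP libraries and 15713318 to 33479580 in Input, of which the ribosomal RNA entry Rn45s left 7023051 to 12500739 and 3407528 to 6954079 reads for all other genes. Levels are given as scaled CPM, read counts relative to library size (CPM) after scaling by TMM, a factor that aligns the bulk of genes between libraries. The limit set by 3 reads lay at 0.0899 to 0.277 scaled CPM across libraries, a limit that covers counting error only. Of a wider list of 36 macrophage genes 33 had at least 3 reads in every library and the other 3 fell below that in at least 1, and the list summed to 188 to 244. Against that, 11 neutrophil markers summed to 0.540 to 1.21 and 12 lymphocyte markers to 0.749 to 2.22, while Elane, the neutrophil elastase gene, and Fcer1a, the ligand-binding chain of the mast cell IgE receptor, were at 0 in all 6 libraries. The haemoglobin genes Hba-a1, Hba-a2, Hbb-b1, Hbb-bt and Hbb-bs were likewise listed at 0 in all 6 libraries of this blood-holding tissue, so a 0 in the table is no proof that a cell type was missing. The 12 pan-leukocyte genes summed to 26.0 to 41.2 and the 12 cardiomyocyte markers to 50638 to 141450. In whole heart lysate, fewer macrophages and less RNA per macrophage cannot be told apart.

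**Figure D1:**
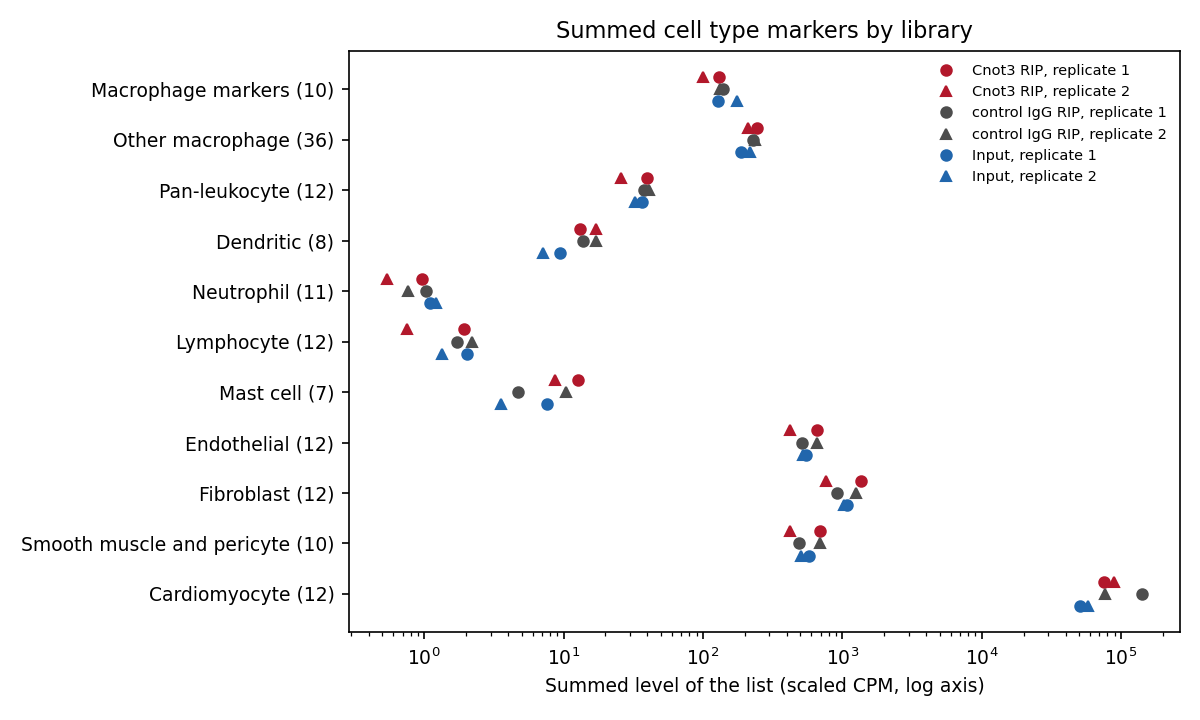
Summed level of each marker list in every library, on a log axis in scaled CPM. Each symbol is 1 library and the number after a list's name is the number of its genes in the table. The 10 macrophage markers sum to between 100 and 176 scaled CPM in the 6 libraries, above the neutrophil and lymphocyte lists in each of them and far below the cardiomyocyte list.

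The 3′ UTRs of the markers were read for elements that recruit CCR4-NOT adaptors, and Mrc1 was the marker that held each of the 3 motifs searched. The windows below are some of the matches, shown because Mrc1 is the marker with the lowest fold change against control IgG RIP and C1qc the one with the highest. They come from the GRCm38 (mm10) genome with the GENCODE annotation, from the sense strand of the principal transcript of each gene, with the motif in capitals and the position of its first base counted from the start of the 3′ UTR.
Mrc1, AU-rich nonamer core at position 512: attgagaactgTATTTATccacatgtaga
Mrc1, AU-rich nonamer core at position 694: ataaataatgcTATTTATtatctaattaa
Mrc1, Pumilio element at position 845: gatgaacaactTGTAGATAaatgccaact
C1qc, AU-rich pentamer at position 168: ttcctgtggccATTTAtcaataccttatg
The searched motifs were TATTTAT, the core of the site bound by the tristetraprolin family, its inner pentamer ATTTA, which lies within every TATTTAT, and TGTANATA, the site bound by Pumilio proteins. Only the transcript strand was searched, since the proteins bind RNA. TATTTAT was found in 1 of the 10 markers (Mrc1, 2 matches) and in 29.5% of the 11934 tested genes with an annotated 3′ UTR. ATTTA was found in 3 markers, Mrc1 with 5 matches, Csf1r with 3 and C1qc with 1, against 68.7% of all those genes. TGTANATA was found in Mrc1 and Csf1r, against 26.0%. The median 3′ UTR of all those genes was 1089 bases long, whereas the markers' 3′ UTRs were 158 (Cd68) to 882 bases (Mrc1), except for Csf1r with 1669 bases, so most of the markers offer less sequence to match. A match of letters is a description and not evidence that a protein binds there.

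Cnot3 RIP and control IgG RIP gave no difference past the threshold for any of the 10 markers. Of the 10 log2 fold changes 9 lay below 0 and 1 above, from -0.46 for Mrc1 to 0.20 for C1qc, with a median of -0.18 beside -0.0029 over all 13010 genes tested. With the deposited library size alone 8 of those 9 turned positive, and the median of all genes moved to 0.299. By limma at a Benjamini-Hochberg adjusted p under 0.05, 0 of the 10 were higher and 0 lower, beside 0.277% of all genes called lower and 1.54% higher. Without adjustment, at p under 0.05, there were also 0, beside 6.33% of all genes lower and 10.9% higher, and edgeR's quasi-likelihood test and DESeq2 on the recovered reads called 0 each. This does not show that the levels are equal. The 95% intervals of the fold change were widest for Cd74, from 0.450 to 1.90, and narrowest for Csf1r, Lyz2 and Mrc1, whose upper bounds were 1.24, 1.24 and 1.06. With TMM scaling, a level in Cnot3 RIP 2 times that in control IgG RIP lay outside the interval of each of the 10 genes.

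Against Input, 1 marker passed the test. Lyz2, the macrophage lysozyme, was lower in Cnot3 RIP, with a fold of 0.513 (limma adjusted p = 0.0464, log2 fold change -0.96 with an SE of 0.25). It was 1 of 10 markers called lower and 0 were called higher, where 2.47% of all genes were lower and 5.86% higher. Of the 10 log2 fold changes 8 were negative, the median was -0.65 beside 0.061 over all genes, and at an unadjusted p under 0.05 there were 4 lower (Lyz2, C1qa, C1qb and C1qc) and 0 higher, where 11.8% of all genes were lower and 15.5% higher. By the quasi-likelihood test of edgeR 1 marker was lower, beside 351 of all genes. By DESeq2 2 were lower (Lyz2 and C1qb), beside 523 of all genes. When the deposited CPM were used without the TMM factors, the median of all genes moved to 1.02 and that of the markers to 0.37, a difference of -0.648 to all genes, while all 10 fold changes were above 0.

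Control IgG RIP against Input gave 0 higher and 0 lower by limma, where 2.58% of all genes were higher and 1.49% lower, and 0 by edgeR and DESeq2 as well. At an unadjusted p under 0.05, 1 marker was higher (Mrc1) and 4 were lower (Lyz2, C1qa, C1qb and C1qc), where 13.3% of all genes were higher and 11.7% lower. The median log2 fold change was -0.57 beside 0.0073 over all genes. With 2 libraries a group, complete separation was common over all genes. Both Cnot3 RIP values lay above both control IgG RIP values in 24% of genes and below them in 21.8%, against 0 and 1 of the 10 markers. Against Input, Cnot3 RIP was separate and higher in 30.6% and lower in 26.9% of genes (1 and 6 markers), and control IgG RIP in 29.7% and 29.3% (2 and 6 markers). All 4 precipitated libraries lay below both Input libraries in 20.2% of genes and above them in 17.9%, against 6 markers (Lyz2, C1qa, C1qb, C1qc, Tyrobp and Fcer1g) and 1 (Mrc1). Both comparisons with Input share the Input libraries, and the values of each gene in both are given side by side here.

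**Figure D2:**
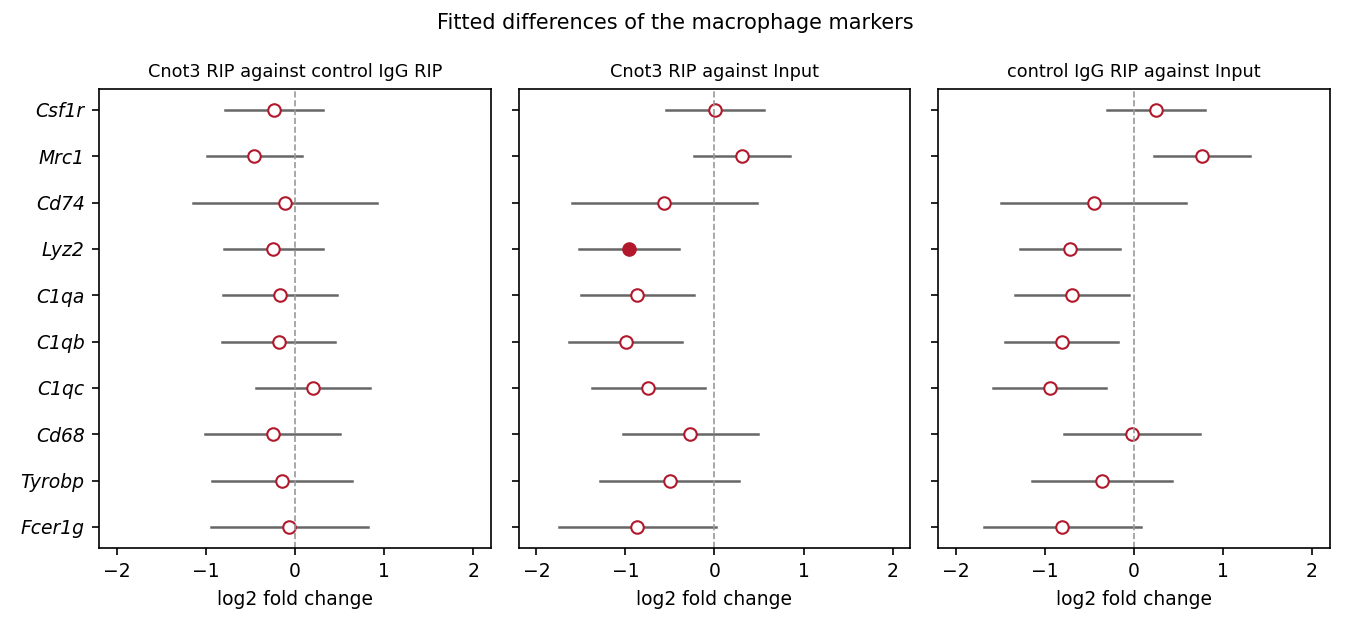
Log2 fold change of each marker in the 3 comparisons (x axis, log2 of scaled CPM plus 0.25), with 95% intervals from limma as bars and a filled point where the gene was called. Against control IgG RIP all intervals span 0, whereas against Input the points of Lyz2 and the C1q chains lie between -0.69 and -0.99 and that of Mrc1 lies at 0.31 and 0.76.

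The surface receptors Csf1r and Mrc1 had the longest transcripts of the 10. Csf1r, the receptor tyrosine kinase for the growth factors Csf1 and Il34 (chr18:61100598-61132149, plus strand), measured 34.2 and 23.5 scaled CPM in the Cnot3 RIP libraries, 32.1 and 35.0 in those of control IgG RIP and 26.1 and 30.3 in Input. Cnot3 RIP overlapped both other groups, and its log2 fold change was -0.24 (SE 0.24) against control IgG RIP and 0.0094 (SE 0.24) against Input. The exons of Csf1r overlap those of Hmgxb3 on the opposite strand, and since the strand setting of the counting is not given in the sources used here, reads of the 2 genes may be mixed.

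Mrc1, the mannose receptor of the macrophage surface (chr2:14229392-14332057, plus strand), measured 34.8 and 26.1 scaled CPM in the Cnot3 RIP libraries, 46.9 and 36.7 in those of control IgG RIP and 24.8 and 23.9 in Input. Its 2 Cnot3 RIP values lay below both control IgG RIP values, an order that 1 of the 10 markers and 21.8% of all genes had, and both precipitations lay above Input. The fold was 0.729 (95% interval 0.502 to 1.06) in Cnot3 RIP against control IgG RIP, with a limma adjusted p of 0.379. In control IgG RIP against Input the fold was 1.70 (limma adjusted p = 0.0969), and in Cnot3 RIP against Input it was 1.24 (limma adjusted p = 0.448). The TATTTAT and Pumilio windows printed above are those of this transcript. Across all genes with a 3′ UTR, holders of TATTTAT had a median log2 fold change of 0.16 in Cnot3 RIP against control IgG RIP and genes without it -0.037, while Mrc1 had -0.46.

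The 3 chains of C1q, the recognition molecule that starts the classical complement pathway, lie next to each other on the minus strand of chromosome 4: C1qb at chr4:136880129-136886187, C1qc at chr4:136889804-136893065 and C1qa at chr4:136895917-136898803. C1qa measured 10.7 and 6.09 scaled CPM in the Cnot3 RIP libraries, 9.11 and 9.15 in those of control IgG RIP and 13.9 and 15.9 in Input. C1qb measured 8.55 and 6.54 in the Cnot3 RIP libraries, 9.05 and 8.02 in those of control IgG RIP and 11.9 and 19.2 in Input. C1qc measured 8.90 and 6.51 in the Cnot3 RIP libraries, 5.54 and 7.84 in those of control IgG RIP and 11.1 and 15.0 in Input. For all 3 chains each precipitated library lay below each Input library, whereas Cnot3 RIP and control IgG RIP overlapped. Set against Input, the Cnot3 RIP folds were 0.549 for C1qa, 0.502 for C1qb and 0.598 for C1qc, with limma adjusted p of 0.0900, 0.0597 and 0.131. For control IgG RIP they were 0.619, 0.570 and 0.520, with limma adjusted p of 0.171, 0.121 and 0.0878, so neither comparison passed the threshold.

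Lyz2 and Cd68 are proteins of the endocytic and lysosomal compartment. Lyz2, which cuts bacterial cell walls (chr10:117277331-117282321, minus strand), measured 13.2 and 11.3 scaled CPM in the Cnot3 RIP libraries, 12.6 and 16.9 in those of control IgG RIP and 21.2 and 27.4 in Input. Both precipitations lay below Input without overlap, and Cnot3 RIP overlapped control IgG RIP. The log2 fold change was -0.96 in Cnot3 RIP against Input, the only limma call among the markers. It was -0.72 in control IgG RIP against Input (limma adjusted p = 0.120). The call rested on a small margin: leaving out 1 library at a time gave a limma adjusted p of 0.0365 (without Cnot3 RIP replicate 1) to 0.281 (without Input replicate 2), past the threshold in that first case alone. With no filter on low values it was 0.0805, and with the deposited library size alone the log2 fold change was 0.10. The paralog Lyz1, active mainly in the gut, shares 195 of the 1267 50-base stretches of Lyz2 (15.4%). It was counted at no more than 0.0712 scaled CPM in any library. The part of reads that fit both genes in the Lyz2 value was not tested.

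Cd68, a heavily glycosylated lysosomal membrane protein (chr11:69664213-69666153, minus strand), measured 3.03 and 1.59 scaled CPM in the Cnot3 RIP libraries, 2.25 and 3.17 in those of control IgG RIP and 2.77 and 2.66 in Input. The 3 groups overlapped, with the lowest value in Cnot3 RIP and the highest in control IgG RIP. Its log2 fold changes were -0.25 against control IgG RIP and -0.27 against Input (limma adjusted p = 0.806 and 0.652).

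Tyrobp (DAP12) and Fcer1g (the Fc receptor gamma chain) are short membrane adaptors with an ITAM, the tyrosine motif through which activating receptors signal to the kinase Syk. Tyrobp (chr7:30413760-30417585, plus strand) measured 1.85 and 0.929 scaled CPM in the Cnot3 RIP libraries, 1.33 and 1.68 in those of control IgG RIP and 1.94 and 2.03 in Input. Fcer1g (chr1:171229572-171234365, minus strand) measured 2.71 and 1.05 in the Cnot3 RIP libraries, 1.56 and 2.08 in those of control IgG RIP and 3.23 and 3.43 in Input. Both adaptors were highest in the 2 Input libraries, and in both the Cnot3 RIP libraries enclosed the control IgG RIP values. The folds in Cnot3 RIP against Input were 0.705 and 0.548 (limma adjusted p = 0.391 and 0.189) and those in control IgG RIP against Input 0.780 and 0.574 (limma adjusted p = 0.562 and 0.238).

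Cd74, the invariant chain that guides MHC class II molecules to the endosome (chr18:60803848-60812652, plus strand), measured 12.04 and 16.5 scaled CPM in the Cnot3 RIP libraries, 19.6 and 11.9 in those of control IgG RIP and 12.1 and 36.1 in Input. It had the largest difference between replicates of any marker in control IgG RIP and in Input, and all 3 groups overlapped. Its fold was 0.924 in Cnot3 RIP against control IgG RIP (limma adjusted p = 0.949) and 0.677 in Cnot3 RIP against Input (limma adjusted p = 0.469). An annotated microRNA gene, Mir5107, lies within its exons.

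**Figure D3:**
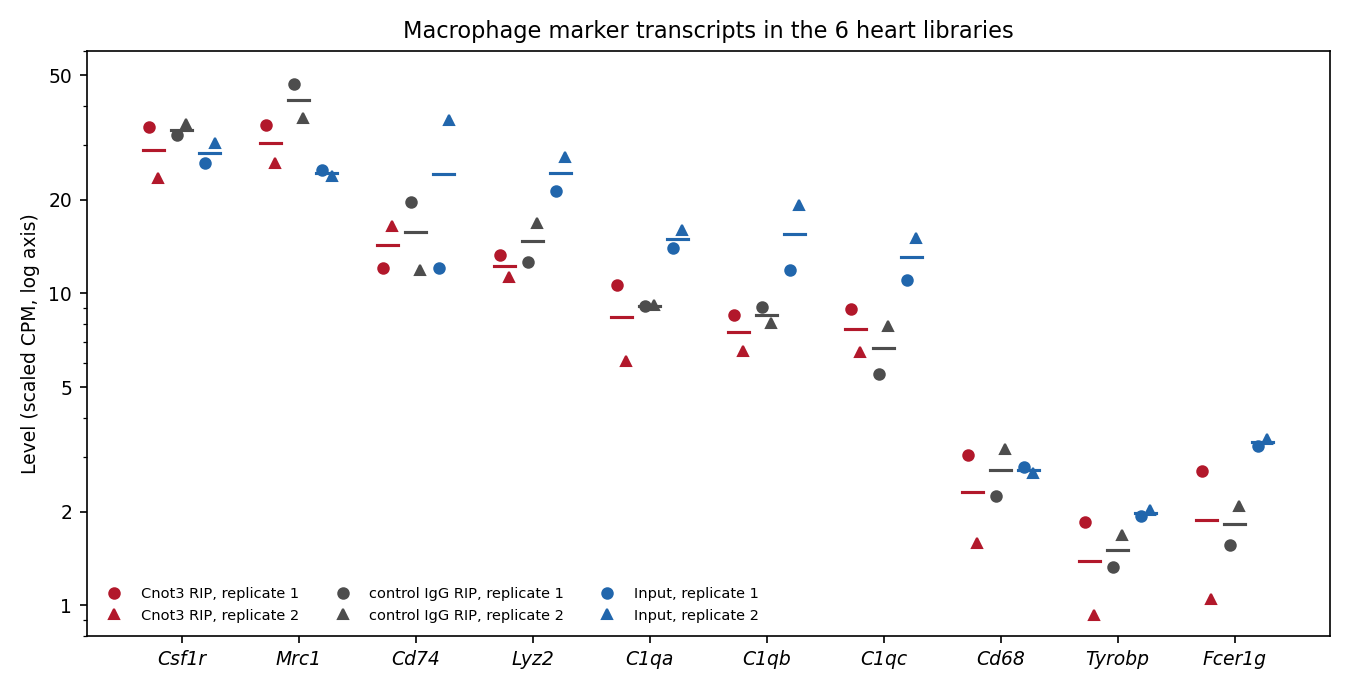
Level of each macrophage marker in every library (scaled CPM, log axis), 2 points per group, with Cnot3 RIP, control IgG RIP and Input from left to right and the group mean as a short line. The Input points of Lyz2, C1qa, C1qb, C1qc, Tyrobp and Fcer1g lie above all 4 precipitated libraries, as in 20.2% of all genes, and those of Mrc1 below them, as in 17.9%.

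Most markers shared the sign of their replicate difference within a group. In Cnot3 RIP 9 of the 10 markers were higher in replicate 1 than in replicate 2, by up to 1.19 on the log2 scale for Fcer1g, whereas 44.7% of all genes tested were higher in replicate 1. The order was the other way in Input, where 2 of the 10 were higher in replicate 1 (48.8% of all genes), and in control IgG RIP, where 3 were (49.4%). Summed levels of several lists moved alongside in Cnot3 RIP: endothelial markers summed to 662 and 422 scaled CPM in replicates 1 and 2, fibroblast markers to 1354 and 760, smooth muscle and pericyte markers to 689 and 419, and pan-leukocyte genes to 39.6 and 26.0, while cardiomyocyte markers (75409 and 88373), the CSF1 receptor list (311 and 732) and the ITAM list (87.7 and 106) were higher in replicate 2. The sums that were higher in replicate 2 leaned on their largest genes, Ttn (43619 and 55403), Pik3r1 (135 and 446) and Sirpa (31.5 and 49.6). Single cardiomyocyte genes went both ways, with Actc1 (2336 and 2635) higher and Tnnt2 (977 and 722) and Myl2 (658 and 445) lower in replicate 2. The part of this replicate difference in the comparisons was not tested. The markers' median log2 fold change against control IgG RIP was -0.52 when Cnot3 RIP replicate 1 was left out and 0.10 when its replicate 2 was. Against Input, the markers' median minus that of all genes was -0.714 with all libraries. It was -0.983 without Cnot3 RIP replicate 1 and -0.417 without its replicate 2.

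Cd74 was the exception, and 3 class II genes followed it. These genes were picked after their values were seen. H2-Aa, the class II A alpha chain, measured 5.81 and 6.39 scaled CPM in the Cnot3 RIP libraries, 8.59 and 4.94 in those of control IgG RIP and 5.26 and 15.5 in Input. H2-Ab1, the partner beta chain, measured 2.71 and 4.11 in the Cnot3 RIP libraries, 6.46 and 2.90 in those of control IgG RIP and 5.08 and 9.66 in Input. H2-Eb1, the E beta chain, measured 3.67 and 8.06 in the Cnot3 RIP libraries, 5.59 and 3.49 in those of control IgG RIP and 4.99 and 9.03 in Input. Like Cd74, all 3 were higher in replicate 1 of control IgG RIP and in replicate 2 of Cnot3 RIP and of Input. Of 14 class II pathway genes tested, 4 had this order (H2-Aa, H2-Ab1, H2-Eb1 and March1, a ubiquitin ligase of class II molecules). So did 20.9% of all genes tested, and of the 10 markers Cd74 alone. The order was not confined to class II genes: Cd163 and Lyve1 of the wider macrophage list and the complement gene C3 had it too.

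**Figure D4:**
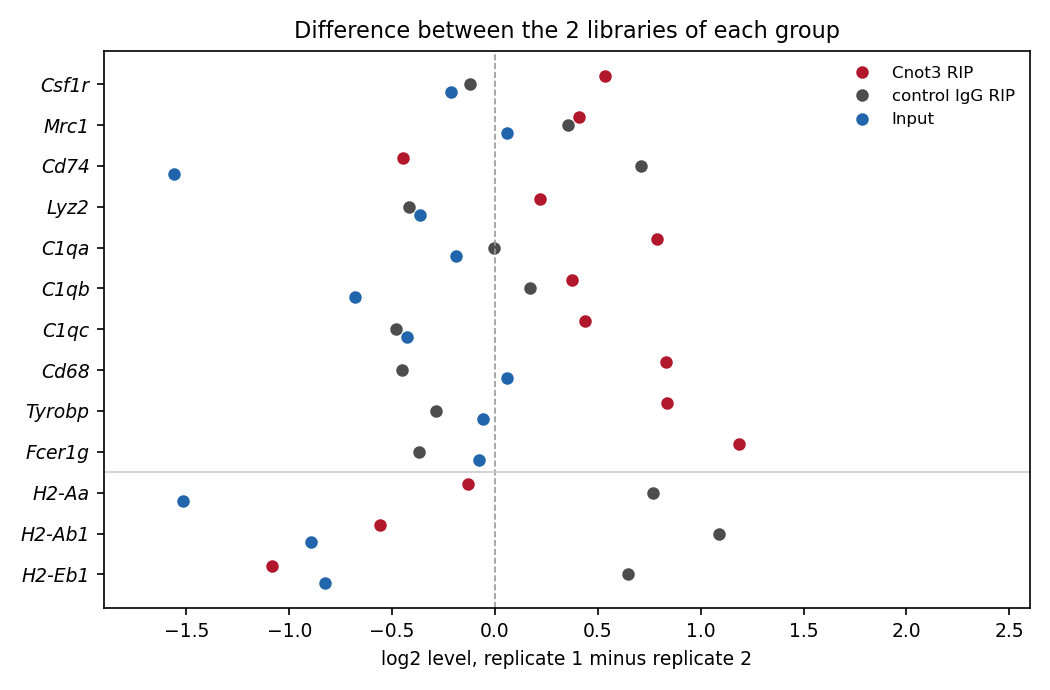
Difference between replicate 1 and replicate 2 of each group on the log2 scale (x axis), for the 10 macrophage markers above the line and 3 MHC class II genes below it. In Cnot3 RIP 9 markers lie right of 0, by 0.22 (Lyz2) to 1.19 (Fcer1g), whereas Cd74 and the class II genes lie left of 0 in Cnot3 RIP and Input and right of it in control IgG RIP.

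Per kilobase of transcript, the markers spanned a range from Lyz2 and Cd74 down to Cd68. This scale divides by transcript length only. Fold changes of the precipitations against Input also went with length, as given below, so order among short and long markers there is a description only. In Cnot3 RIP Cd74 had the highest level with 10.1 ± 2.2 scaled CPM per kb (SD, n = 2), followed by Lyz2 with 9.34 ± 1.03, C1qa with 8.06 ± 3.13, C1qb with 6.93 ± 1.31, C1qc with 6.41 ± 1.41, Csf1r with 6.13 ± 1.60 and Mrc1 with 5.67 ± 1.14. Neighbours among these 7 differed by less than their spread, and Fcer1g (2.79 ± 1.74), Tyrobp (2.47 ± 1.16) and Cd68 (1.88 ± 0.83) followed at lower levels, again within their spread of each other. In control IgG RIP Lyz2 had 11.2 ± 2.3 and Cd74 11.2 ± 3.9 scaled CPM per kb, followed by C1qa with 8.78 ± 0.03, C1qb with 7.85 ± 0.67, Mrc1 with 7.78 ± 1.35, Csf1r with 7.14 ± 0.43 and C1qc with 5.56 ± 1.35. Of these only C1qa and C1qb, and Csf1r and C1qc, were neighbours further apart than both their SDs, and Fcer1g (2.70 ± 0.55), Tyrobp (2.66 ± 0.44) and Cd68 (2.203 ± 0.530) followed within their spread of each other. In Input Lyz2 had 18.5 ± 3.3, Cd74 17.1 ± 12.04, C1qa 14.4 ± 1.4, C1qb 14.3 ± 4.7 and C1qc 10.9 ± 2.3 scaled CPM per kb, 5 levels whose neighbours lie within their spread. Csf1r followed with 6.01 ± 0.63, Fcer1g with 4.94 ± 0.21, Mrc1 with 4.53 ± 0.13, Tyrobp with 3.52 ± 0.11 and Cd68 with 2.21 ± 0.07, each further from its neighbours than either SD.

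The direction of the fold changes against Input went with transcript length among the markers, and it did so over the whole table. The 8 markers with transcripts of 0.564 kb (Tyrobp) to 1.41 kb (Cd74) had negative log2 fold changes in both comparisons with Input, and Csf1r (4.701 kb) and Mrc1 (5.374 kb) had positive ones. With the deposited library size alone all 10 were above 0 in Cnot3 RIP against Input. With TMM scaling, values near 0 also changed sign there: Csf1r was -0.25 without Cnot3 RIP replicate 1, -0.15 without Input replicate 1 and -0.040 without control IgG RIP replicate 1, and Cd68 was 0.15 without Cnot3 RIP replicate 2. Without Input replicate 2, Cd74 was 0.17 for Cnot3 RIP and 0.31 for control IgG RIP. Cd68 was 0.19 for control IgG RIP without its replicate 1. Over all tested protein-coding genes matched to the annotation, the median log2 fold change in Cnot3 RIP against Input was -0.71 for 535 genes shorter than 1 kb, -0.36 for 2339 genes of 1 to 2 kb, -0.0027 for 4978 genes of 2 to 4 kb and 0.36 for 4180 longer genes. For control IgG RIP against Input these medians were -0.66, -0.35, -0.051 and 0.25. Between Cnot3 RIP and control IgG RIP they were -0.059, -0.060, 0.014 and 0.070. Among genes of 1 to 2 kb, the class of Lyz2, C1qa, C1qb, C1qc, Cd68 and Cd74, 5.64% were called lower in Cnot3 RIP against Input. The part of transcript length in the markers' values was not tested.

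**Figure D5:**
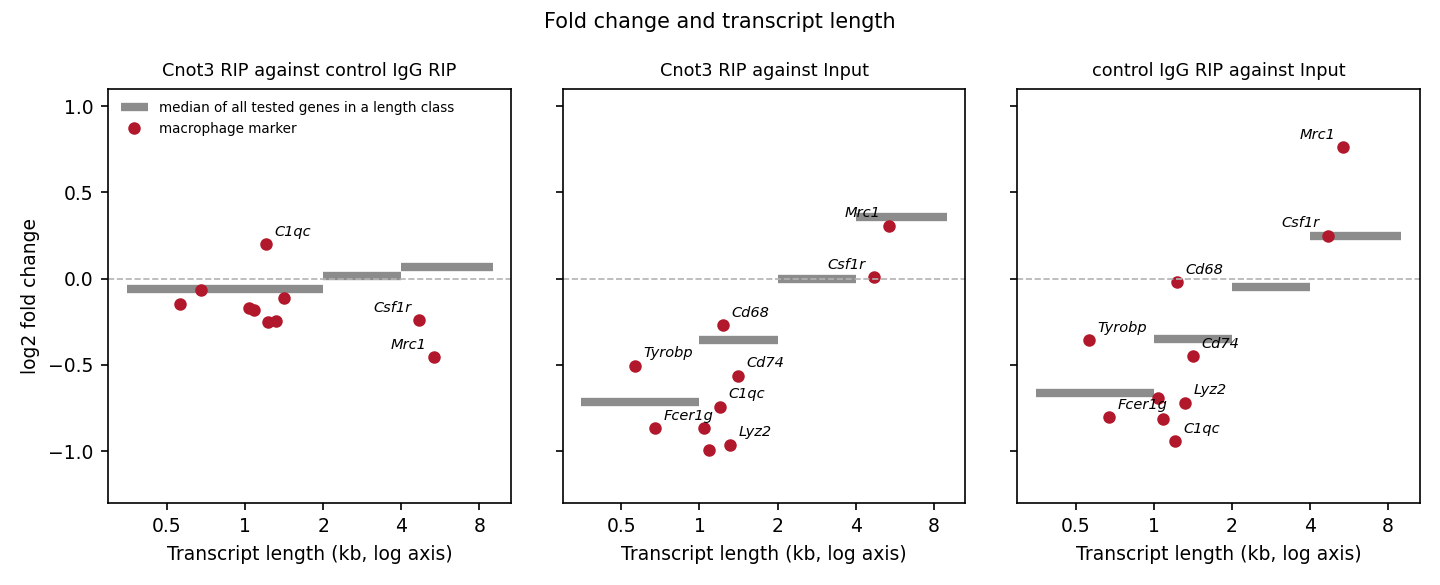
Log2 fold change of each macrophage marker (red points) against the length of its transcript (kb, log axis) in the 3 comparisons, with the median of all tested protein-coding genes in each of 4 length classes as grey bars. The outermost classes have no outer bound in the data and their bars are drawn to the edge of the plotted range. Against Input the markers under 2 kb lie below 0 and Mrc1 above it, and the grey medians run from -0.71 to 0.36 in Cnot3 RIP and from -0.66 to 0.25 in control IgG RIP.

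Other genes of the same cells and pathways were counted in the same fit. Of 36 other macrophage genes 33 were tested. In Cnot3 RIP against control IgG RIP 0 passed in either direction by limma or edgeR. DESeq2 called 1 up, beside 573 of all genes. At an unadjusted limma p under 0.05 there were 3 up and 0 down, beside 10.9% of all genes up and 6.33% down. The gene of smallest p was the transcription factor Maf, which acts in macrophage differentiation and also in other cell types. Maf measured 18.5 and 21.6 scaled CPM in the Cnot3 RIP libraries, 11.6 and 10.9 in those of control IgG RIP and 10.8 and 10.7 in Input. Both Cnot3 RIP values lay above the other 4, with a log2 fold change of 0.81 against control IgG RIP (limma adjusted p = 0.0989) and 0.88 against Input (limma adjusted p = 0.0407). The second was the only limma call of this list. Against Input, edgeR and DESeq2 each called 2 of its genes higher in Cnot3 RIP, beside 805 and 1060 of all genes. The limma call was lost without either Input library, without either control IgG RIP library and without Cnot3 RIP replicate 2.

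The list around the CSF1 receptor held 1 gene of 14 called higher against control IgG RIP by limma and edgeR, and 2 by DESeq2. Over all 13010 genes limma called 200 higher (1.54%), edgeR 242 and DESeq2 573. The limma call was the only one in this comparison among the lists counted. Csf1, the growth factor that Csf1r binds, measured 79.2 and 163 scaled CPM in the Cnot3 RIP libraries, 34.1 and 39.7 in those of control IgG RIP and 30.8 and 34.7 in Input. It is made mainly by stromal and endothelial cells, so its level is no measure of macrophages. Both Cnot3 RIP libraries lay above the other 4, and the log2 fold change was 1.62 (SE 0.32, fold 3.07) against control IgG RIP, with a limma adjusted p of 0.0433. That call was lost without Cnot3 RIP replicate 2 (limma adjusted p = 0.151), without either control IgG RIP library (0.385 and 0.102) and without either Input library (0.0610 and 0.0643). Its receptor Csf1r had a log2 fold change of -0.24 in the same comparison.

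Against Input limma called 3 of the 14 genes of that list higher in Cnot3 RIP and 0 lower, beside 5.86% and 2.47% of all genes. By edgeR and DESeq2 4 were higher, beside 805 and 1060 of all genes. The 3 were Csf1 with a log2 fold change of 1.79 (limma adjusted p = 0.0168), Runx1, a blood-cell transcription factor, with 1.73 (limma adjusted p = 0.0226), and Cbl, a ubiquitin ligase that downregulates the receptor, with 1.19 (limma adjusted p = 0.0251). All 3 calls were lost without either Input library, and those of Runx1 and Cbl also without Cnot3 RIP replicate 2. In control IgG RIP against Input 0 of the 14 passed by limma, edgeR or DESeq2. At an unadjusted limma p under 0.05 there were 1 up and 1 down, beside 13.3% of all genes up and 11.7% down. The median log2 fold change of the list was 0.44 in Cnot3 RIP against control IgG RIP, beside -0.0029 over all genes and -0.18 for the 10 markers. The list, which includes Csf1, was chosen with earlier results of these data known, so this difference is a description only.

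Few partners of C1q, Cd74 and the adaptors passed the test. Of 15 complement genes tested, 1 passed by limma in any comparison, Cd59a, an inhibitor of the membrane attack complex, which was lower in control IgG RIP than in Input (log2 fold change -1.10, limma adjusted p = 0.0449). It measured 7.37 and 8.06 scaled CPM in the Cnot3 RIP libraries, 7.61 and 5.39 in those of control IgG RIP and 14.7 and 13.4 in Input, and the call was lost by edgeR and without any 1 library of control IgG RIP or Input. Of 14 class II pathway genes, 16 genes of ITAM receptors and their kinases, and 22 lysosomal and scavenger genes, limma and edgeR called 0 in each of the 3 comparisons. At an unadjusted limma p under 0.05, genes were counted as higher and lower. Cnot3 RIP against control IgG RIP had 1 and 1 class II pathway genes, 1 and 2 ITAM genes, and 0 and 0 lysosomal genes. Cnot3 RIP against Input had 0 and 2, 2 and 2, and 0 and 5 in the same order. Control IgG RIP against Input had 1 and 1, 3 and 2, and 1 and 4. Over all genes that cut gave 10.9% higher and 6.33% lower in the first comparison. In the second it gave 15.5% and 11.8%, and in the third 13.3% and 11.7%. In Cnot3 RIP against Input, DESeq2 called 2 complement genes, 1 class II pathway gene and 1 lysosomal gene lower, and 1 ITAM gene higher. Over all genes it called 523 lower and 1060 higher there. In control IgG RIP against Input it called 1 complement gene and 1 class II pathway gene lower, beside 277 of all genes. The 2 class II pathway genes of smallest p between Cnot3 RIP and control IgG RIP were Ciita, the master regulator of class II genes, with a log2 fold change of -0.71 (limma adjusted p = 0.270), and Rfxank, a subunit of its promoter complex, with 0.66 (limma adjusted p = 0.286). Those of the ITAM list were Sirpa, an inhibitory receptor for CD47, with 0.81 (limma adjusted p = 0.146), and the adaptor Lat2 with -1.10 (limma adjusted p = 0.171).

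Among markers of other cells, Clec9a, a receptor of cross-presenting dendritic cells, was higher in control IgG RIP than in Input (log2 fold change 1.28, limma adjusted p = 0.0365), 1 of 3 dendritic genes tested, and this call was lost without any 1 library of control IgG RIP or Input. The capillary fatty acid binding protein Fabp4 was lower in Cnot3 RIP than in Input (log2 fold change -1.04, limma adjusted p = 0.0364). So were the myosin light chains Myl2 (-1.28, limma adjusted p = 0.0322) and Myl3 (-1.16, limma adjusted p = 0.0350). In the endothelial and cardiomyocyte lists 5 of 12 log2 fold changes each were above 0, with medians of -0.0335 and -0.17. The calls were 1 of 12 endothelial and 2 of 12 cardiomyocyte markers, where 2.47% of all genes were called lower. All 3 of these calls were lost without Cnot3 RIP replicate 2 or either Input library, that of Fabp4 also without control IgG RIP replicate 2, and with the deposited library size alone the Fabp4 value was 0.041.

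The 6 genes outside the markers named here ran most like the markers' mean log2 level over the 6 libraries, by Pearson's r among 4722 genes with a mean of at least 10 scaled CPM. They were Rpn2, an oligosaccharyltransferase subunit, with r = 0.993, the respiratory chain subunits Cox8b (0.988) and Sdhb (0.976), the nuclear repressor Atn1 (0.979), the apolipoprotein gene Apoe (0.976) and the pentose phosphate enzyme Taldo1 (0.976). The libraries share groups and depth, n is 6, and such values describe a resemblance only. Apoe, which macrophages make in quantity, measured 47.1 and 28.7 scaled CPM in the Cnot3 RIP libraries. It measured 38.1 and 39.7 in those of control IgG RIP and 50.5 and 59.8 in Input. It was highest in both Input libraries, as were 20.2% of all genes, and it was picked for its likeness to the markers.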

How the data were processed

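RNA of heart lysates, Cnot3 RIP and control IgG RIP was sequenced in 6 libraries, 2 per group, grouped by the antibody given in the labels. The deposited table holds CPM per gene symbol. The genome build named was mm10 and the tools were TopHat2 2.1.0, Bowtie2 2.2.5, edgeR, FastQC and CASAVA 1.8, per the submitters' processing notes. How reads were counted, on which annotation, kit and strand setting, is not given in the sources used here. The CPM were whole multiples of the value of 1 read in 100% of cases within 0.01 read, which gave back the reads.

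Computed here: TMM factors from those reads (edgeR 4.0.16, genes with filterByExpr at a minimum count of 10, 13010 of 24421), then limma 3.58.1 (trended empirical Bayes, R 4.3.3) on log2 of scaled CPM plus 0.25, with all 6 libraries in 1 fit of 3 group means and no block. Fold changes on this scale understate those of low genes. Called means a Benjamini-Hochberg adjusted p under 0.05 over all 13010 genes. An exact permutation test of 2 libraries against 2 cannot give a p under 0.333. Both count tests on the recovered reads, edgeR's quasi-likelihood test and DESeq2 1.42.0, were alternatives, besides other scalings, pseudocount 1, no filter, a replicate block, fits of the compared groups only and leaving out each library. The limma step was tested on simulated data.

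The markers and gene lists were chosen with earlier results of these data known. All 10 markers were described. In each list and comparison the genes that passed were named where 5 or fewer did, and where 0 passed, the 2 of smallest p at most, and the replicate differences of class II genes were added after their values were seen. Transcript lengths and 3′ UTRs came from the longest APPRIS principal transcript in the GENCODE annotation of GRCm38, to which 12538 of the 13010 genes matched by symbol. C1s, Trbc2 and Ly6g were not analysed here, and 1 gene that the naming rule selects is not reported here.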

Additional observations from a re-analysis of the deposited data

How the results depend on the processing

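With 2 libraries per group and low levels, the depth limits what can be called for Tyrobp, Fcer1g and Cd68. Nothing in the labels says that same-numbered libraries belong together, and their deviations correlated at -0.317 (Cnot3 RIP and control IgG RIP), -0.327 (control IgG RIP and Input) and 0.339 (Cnot3 RIP and Input). With the replicate block, 0 markers were called lower in Cnot3 RIP against Input (Lyz2 had a limma adjusted p of 0.0674), and the whole table gave 385 calls in Cnot3 RIP against control IgG RIP and 325 in control IgG RIP against Input. Whether the control IgG RIP numbers are crossed was not tested. A replicate block with them crossed was chosen after seeing the data. It called 1065 genes in Cnot3 RIP against control IgG RIP, 2498 in Cnot3 RIP against Input and 1870 in control IgG RIP against Input. Of the markers, 3 were lower in the second comparison, and 1 was higher and 1 lower in the third.

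Deposited library size alone moved the median of all genes to 0.299, 1.02 and 0.699 on the log2 scale and the calls to 625, 7759 and 4393, of which 94.7%, 99.9% and 99.8% were higher, against 84.7%, 70.4% and 63.4% with TMM. The markers' medians became 0.13, 0.37 and 0.18, with 2 called higher and 0 lower against Input in both precipitations. Relative to that shift the markers' medians lay at -0.173, -0.648 and -0.521. In Cnot3 RIP against control IgG RIP its log2 fold changes turned to 0.14 (C1qa), 0.13 (C1qb), 0.034 (Cd68), 0.20 (Cd74), 0.076 (Csf1r), 0.21 (Fcer1g), 0.068 (Lyz2) and 0.12 (Tyrobp). In Cnot3 RIP against Input they turned to 0.19 (C1qa), 0.063 (C1qb), 0.31 (C1qc), 0.71 (Cd68), 0.50 (Cd74), 0.11 (Fcer1g), 0.10 (Lyz2), 0.43 (Tyrobp) and 0.041 (Fabp4), and in control IgG RIP against Input to 0.055 (C1qa), 0.67 (Cd68), 0.30 (Cd74), 0.035 (Lyz2) and 0.31 (Tyrobp).

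Other settings turned values near 0: Fcer1g in Cnot3 RIP against control IgG RIP to 0.025 (edgeR) and 0.0037 (DESeq2), Csf1r in Cnot3 RIP against Input to -0.0011 (DESeq2 size factors) and -0.060 (only the 2 groups compared), and Cd68 in control IgG RIP against Input to 0.0086 (edgeR) and 0.0096 (DESeq2). With no filter, 35 and 548 genes were called in the comparisons of Cnot3 RIP with control IgG RIP and Input, and 0 markers lower in the second. DESeq2 called 735 genes in Cnot3 RIP against control IgG RIP. In Cnot3 RIP against Input it called 2 markers lower, beside 523 of all genes. The quasi-likelihood test of edgeR called 339 genes in control IgG RIP against Input, and fits of only the 2 groups compared called 112 in Cnot3 RIP against control IgG RIP and 1002 in control IgG RIP against Input.

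Leaving out 1 library at a time gave 0 to 1306, 12 to 1970 and 20 to 895 calls over the whole table in the 3 comparisons, most without Cnot3 RIP replicate 1 in each and fewest without control IgG RIP replicate 1, Input replicate 2 and control IgG RIP replicate 1, with 0 markers called in Cnot3 RIP against control IgG RIP and in control IgG RIP against Input, and 0 to 4 lower in Cnot3 RIP against Input. The markers' medians ranged from -0.52 to 0.10, from -0.98 to -0.37 and from -0.84 to -0.42. In Cnot3 RIP against control IgG RIP the log2 fold changes ranged from -0.55 to 0.23 (C1qa), -0.36 to 0.012 (C1qb), -0.071 to 0.44 (C1qc), -0.65 to 0.17 (Cd68), -0.47 to 0.21 (Cd74), -0.50 to 0.034 (Csf1r), -0.64 to 0.53 (Fcer1g) and -0.55 to 0.28 (Tyrobp). In Cnot3 RIP against Input they ranged from -0.68 to 0.15 (Cd68), -1.39 to 0.17 (Cd74) and -0.25 to 0.28 (Csf1r), and in control IgG RIP against Input from -0.25 to 0.19 (Cd68) and -1.25 to 0.31 (Cd74). The cause of these differences was not tested. A group reduced to 1 library was assumed to vary like the others.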
